A study of Mus musculus with 2 samples.

Results

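The miR-34 family was examined in small RNA from J1, a mouse embryonic stem cell (mESC) line. Its members are the hairpins Mir34a, Mir34b and Mir34c, and a sequenced tag was counted for them where it matched 1 of these hairpins perfectly over its whole length. GENCODE M21 names 1174 miRNA hairpins, 805 of them with reads here, and all 3 members had reads. Their 6 arms, 5p and 3p of each hairpin, all belong to the detected miRNAs, taken as those with a level of 1 RPM or more in either library (519 of the 1171 with any read). RPM, the unit of level, is the count scaled to a common total of clean reads. All cells were grown on gelatin without feeders in serum replacement medium with LIF (1000 U/mL), the cytokine on which self-renewal depends. They received for 24 h either 1 μM PD0325901 (PD), which inhibits MEK and so ERK signaling, or DMSO as control. Each library was made from a pool of the RNA of 3 independent experiments, 1 library for each treatment, so there are no replicates, and every interval and test covers the sampling of reads only. They compare the 2 libraries and not the treatments. Clean reads numbered 18870345 (control) and 20944808 (PD), and 3 reads, the smallest level that could be told from 0, correspond to 0.159 and 0.143 RPM. The share of reads with the size of miRNAs, 20 to 24 nt, was 63.0% in control and 52.0% with PD, so fold changes are also given per read of that size.

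A miRNA is cut from a hairpin precursor as a duplex of a 5p and a 3p strand, of which 1 usually stays in the Argonaute protein. The bases 2 to 8 of that strand, the seed, pair with target mRNAs. The miR-34 genes are known as direct transcriptional targets of the tumor suppressor p53, and their products repress transcripts for cell cycle entry and survival, such as those of cyclin-dependent kinases, Myc and Bcl2. In stem cell work they are known as a barrier to the reprogramming of somatic cells. The question put to the data was whether the level of these miRNAs, or their strands and ends, differed between control and PD, and whether the Mir34a locus and the Mir34b/Mir34c locus differed in the same way.

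The loci lie apart in the genome (build GRCm38). Mir34a is at chr4:150068454-150068555 on the plus strand, and its last 17 bases overlap an exon of Gm37795, a transcript annotated to be experimentally tested, on the same strand. Mir34b is at chr9:51103562-51103645 and Mir34c at chr9:51103034-51103110, both on the minus strand with 451 bases between them. They lie within Btg4, a protein-coding gene on the opposite strand, outside its exons. Mir34b and Mir34c are known to be cut from 1 primary transcript.

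RefSeq (GRCm38.p6) gave the mature sequence of 5 of the 6 arms, all but miR-34c-5p. They are shown 5′ to 3′ with the seed in capitals, because the seed sets which arms can share targets:
miR-34a-5p: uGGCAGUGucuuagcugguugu
miR-34b-5p: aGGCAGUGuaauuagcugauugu
miR-34a-3p: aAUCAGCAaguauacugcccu
miR-34b-3p: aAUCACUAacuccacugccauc
miR-34c-3p: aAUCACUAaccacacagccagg
The 5p arms of Mir34a and Mir34b had the seed GGCAGUG, and the most frequent miR-34c-5p tag in these libraries had the same bases 2 to 8. On the 3p side, miR-34b-3p and miR-34c-3p shared a seed that differs from that of miR-34a-3p. Over their most frequent tags, the 5p arms of Mir34b and Mir34c held 21 of 23 bases in the same order (91.3%), against 19 of 23 (82.6%) for Mir34a with Mir34b. The hairpins of the members with both arms in RefSeq follow, with the mature arms in capitals, to show where the 5p arm, the loop and the 3p arm lie:
Mir34a: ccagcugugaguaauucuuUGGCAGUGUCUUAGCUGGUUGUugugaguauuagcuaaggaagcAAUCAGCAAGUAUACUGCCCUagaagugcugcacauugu
Mir34b: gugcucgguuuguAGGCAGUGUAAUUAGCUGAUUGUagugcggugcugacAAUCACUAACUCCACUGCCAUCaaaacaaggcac
The 67 distinct tags counted for the family matched 0 other miRNA hairpins and 0 other GENCODE transcripts on either strand, so no read of the family was shared with another annotated transcript. Introns and sequence outside the annotated transcripts were not searched.

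The family was expressed in J1 mESCs, and almost all of its reads came from 1 arm. The 3 hairpins together had 9636 reads in control (511 RPM) and 9719 with PD (464 RPM). Mir34c held 92.6% of the family's reads in the control (95% Wilson interval 92.1 to 93.1) and 92.9% in the PD library (92.4 to 93.4). Mir34a held 5.53% (5.09 to 6.01) and 5.29% (4.86 to 5.75), and Mir34b 1.83% (1.58 to 2.11) and 1.80% (1.55 to 2.08). The interval of each hairpin's share in 1 library overlapped that in the other. Although Mir34b and Mir34c are 451 bases apart, Mir34c had 50.7 times the reads of Mir34b in the control and 51.6 times in the PD library. Here and below, levels of different sequences are compared as read counts, and how these relate to numbers of molecules was not tested.

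Among the 5p arms, miR-34c-5p had 8904 reads in the control (472 RPM, 95% Poisson interval 462 to 482) and 9007 in the PD library (430 RPM, 421 to 439). It ranked 44 by level among the 519 detected miRNAs of the control. miR-34a-5p, the member best known as a p53 target, had 422 reads (22.4 RPM, 20.3 to 24.6) and 419 reads (20.01 RPM, 18.1 to 22.02), and ranked 192. miR-34b-5p had 145 reads (7.68 RPM, 6.48 to 9.04) and 139 reads (6.64 RPM, 5.58 to 7.84), and ranked 290. The 3p arms were lower. miR-34a-3p had 107 reads (5.67 RPM, 4.65 to 6.85) and 91 reads (4.34 RPM, 3.50 to 5.33). miR-34b-3p had 31 reads (1.64 RPM, 1.12 to 2.33) and 36 reads (1.72 RPM, 1.20 to 2.38). miR-34c-3p, the strand opposite the most abundant arm, had 23 reads in each library (1.22 RPM, 0.773 to 1.83, and 1.10 RPM, 0.696 to 1.65) and ranked 473. The order of the arms was the same in both libraries, but miR-34b-3p and miR-34c-3p overlapped in both, and miR-34b-5p and miR-34a-3p overlapped in the control. The other neighbours in this order did not overlap in either library.

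**Figure D1:**
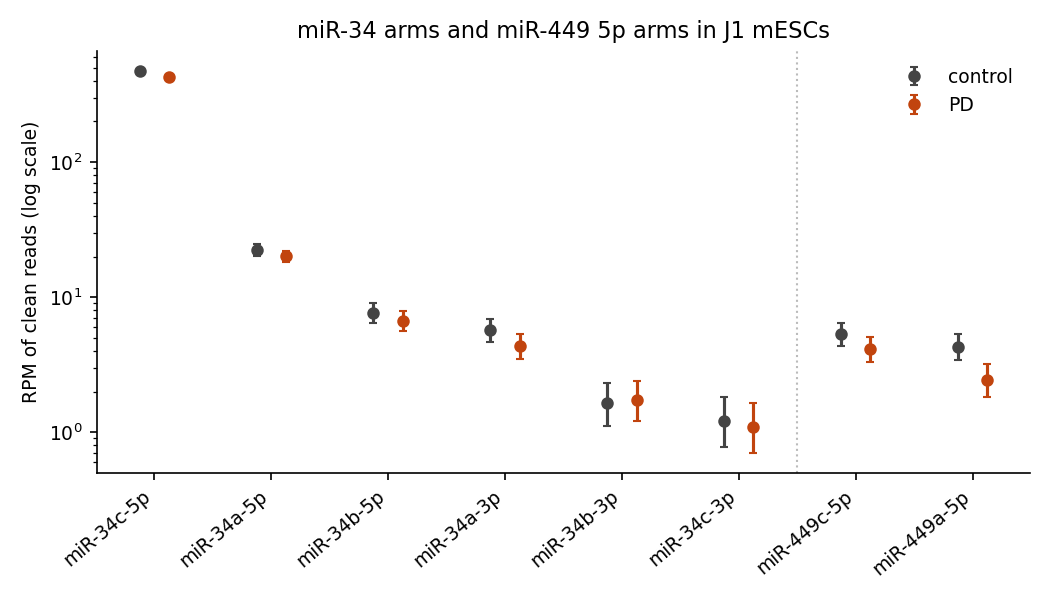
Level of each miR-34 arm and of the Mir449 5p arms, which share the seed, in the control and PD libraries (RPM of clean reads, log scale). Points are 1 library each and bars are 95% Poisson intervals of the reads. miR-34c-5p stands at 472 and 430 RPM, and all other arms lie at or below 22.4 RPM.

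The arms used differed among the hairpins. Mir34c reads were almost all on the 5p arm, 99.7% in each library (99.6 to 99.8 in both), with 387 reads of 5p for each read of 3p in the control and 392 in the PD library. For Mir34a the 5p share was 79.2% (75.5 to 82.4) in the control and 81.5% (77.9 to 84.6) in the PD library, and for Mir34b it was 82.4% (76.1 to 87.3) and 79.4% (72.8 to 84.8). The intervals of Mir34a and Mir34b overlapped each other in both libraries, and neither overlapped that of Mir34c. Tags outside both arms were found for Mir34a only, 4 reads of 3 distinct tags in each library, of which 3 reads in each library lay between the arms.

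With PD, no member passed the 1.5-fold criterion in either direction. On the scale of clean reads, 0 of the 6 arms were lower by 1.5-fold or more, where 13.7% of detected miRNAs (71 of 519) were, and 0 were higher by that much, where 6.17% (32 of 519) were. Some of the 519 hold the same reads under different names, such as miR-467a-5p and miR-467b-5p, each with 495 and 961 reads. Counts over all detected miRNAs thus include some reads more than once. The fold change (PD over control) of miR-34c-5p was 0.911 (95% Clopper-Pearson interval 0.885 to 0.939). It was 0.895 for miR-34a-5p (0.780 to 1.03) and 0.864 for miR-34b-5p (0.679 to 1.10). These 3 intervals, of the arms that carry the family seed, exclude a 1.5-fold change in either direction as far as read sampling goes. For miR-34a-3p the fold change was 0.766 (0.573 to 1.02), which excludes a 1.5-fold rise but not a fall of that size. Too few reads covered miR-34b-3p (1.05, 0.629 to 1.75) and miR-34c-3p (0.901, 0.483 to 1.68) to detect or exclude 1.5-fold either way.

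The reads of miR-34c-5p were fewer in the PD library than the depths predict (exact binomial test, Benjamini-Hochberg adjusted over all detected miRNAs, p = 3.0e-09). Its fold change turned to 1.04 per read that matches miRNA hairpins and to 1.10 per read of 20 to 24 nt. On these scales the exact binomial test, unadjusted, called its reads higher in the PD library (p = 0.0033 and 4.0e-11). Per clean read, only miR-34c-5p of the 6 arms passed the adjusted test, where 45.3% of detected miRNAs (235 of 519) did. Only it had an unadjusted p under 0.05, where 263 of 519 did. The adjusted exact binomial p was 0.20 for miR-34a-5p, 0.12 for miR-34a-3p, 0.36 for miR-34b-5p, 0.95 for miR-34b-3p and 0.86 for miR-34c-3p. The test has no term for variation between cultures or libraries. When the exact test of edgeR was given an assumed biological coefficient of variation of 0.1, the unadjusted p of miR-34c-5p was 0.52.

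The detected miRNAs as a whole were also lower per clean read, with a median log2 fold change of -0.17 (quartiles -0.41 and 0.06), and 67.4% of them were below the control, but this median was 0.03 per read that matches miRNA hairpins and 0.11 per read of 20 to 24 nt. Against that median, the fold change of miR-34c-5p was 1.03, of miR-34a-5p 1.01, of miR-34c-3p 1.01 and of miR-34b-5p 0.972. The arms furthest from the median were miR-34a-3p at 0.863 and miR-34b-3p at 1.18, both with under 110 reads per library. The median log2 fold change of the 6 arms was -0.16, beside -0.17 for all detected miRNAs. In a bulk library, fewer cells that express a miRNA and less of it per cell cannot be told apart.

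**Figure D2:**
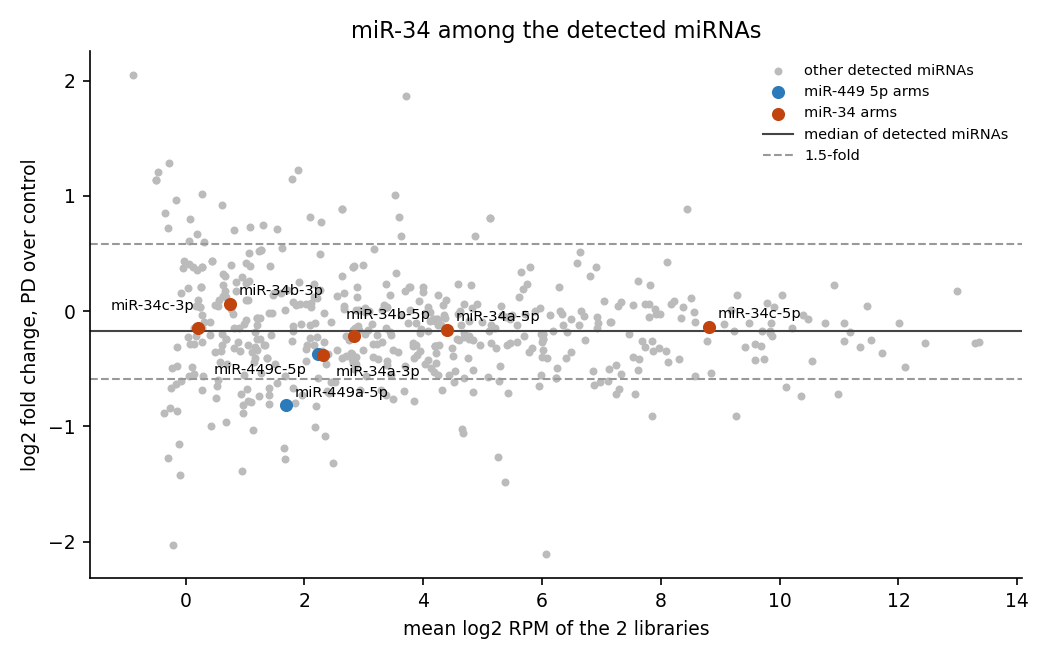
Log2 fold change (PD over control) against the mean log2 RPM of the 2 libraries for the 519 detected miRNAs, with 0.01 RPM in place of 0. Red points are the 6 miR-34 arms, blue points the Mir449 5p arms, the solid line the median of -0.17, and dashed lines mark 1.5-fold. All miR-34 arms lie between the dashed lines.

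No difference in fold change between the loci was detected at this depth. Mir34a had 533 reads in the control (28.2 RPM, 25.9 to 30.7) and 514 in the PD library (24.5 RPM, 22.5 to 26.8), a fold change of 0.869 (0.768 to 0.983). The Mir34b/Mir34c locus had 9103 reads (482 RPM, 473 to 492) and 9205 reads (439 RPM, 431 to 448.6), a fold change of 0.911 (0.885 to 0.938). The ratio of the first fold change to the second was 0.954 (exact 95% interval 0.840 to 1.08), and a 2-sided Fisher exact test of the reads gave p = 0.46. This ratio does not depend on the denominator, and it excludes a difference between the loci beyond 1.19-fold in the direction of a stronger fall of Mir34a. By the exact binomial test, unadjusted, the reads of both loci were fewer per clean read in the PD library (p = 0.024 for Mir34a and 3.0e-10 for Mir34b/Mir34c), but the fold changes were 0.996 and 1.04 per read that matches miRNA hairpins and 1.05 and 1.10 per read of 20 to 24 nt. The hairpins within the Mir34b/Mir34c locus had fold changes of 0.896 (Mir34b, 0.723 to 1.11) and 0.911 (Mir34c, 0.885 to 0.939).

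**Figure D3:**
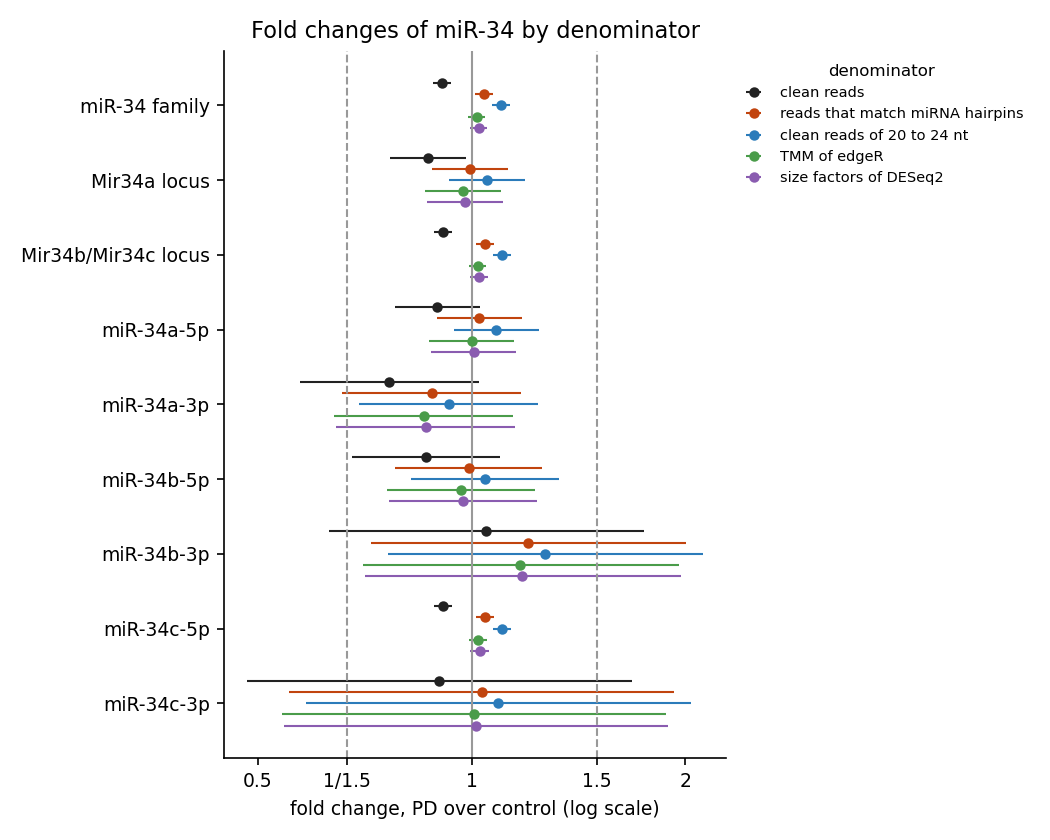
Fold change (PD over control, log scale) of the miR-34 family, both loci and each arm under 5 denominators, with exact 95% intervals of the reads. The family stands at 0.909 per clean read, at 1.04 per read that matches miRNA hairpins and at 1.10 per read of 20 to 24 nt, and no point lies past the dashed lines at 1.5-fold.

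The 3′ ends differed among the 5p arms. miR-34a-5p consisted mainly of 2 forms that start at the same base. They are shown with the next most frequent tags, 5′ to 3′ as deposited, with the seed in capitals:
miR-34a-5p, 22 nt: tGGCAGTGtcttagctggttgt
miR-34a-5p, 23 nt: tGGCAGTGtcttagctggttgtt
miR-34a-5p, 20 nt: tGGCAGTGtcttagctggtt
miR-34a-5p, 21 nt: tGGCAGTGtcttagctggttg
The tag of 22 nt, identical to the RefSeq sequence, had 210 reads in the control and 202 in the PD library. The tag of 23 nt had 154 and 172 reads, the tag of 20 nt 25 and 13, and that of 21 nt 10 and 13. Thus the annotated form made up 49.8% of miR-34a-5p in the control (45.0 to 54.5) and 48.2% in the PD library (43.5 to 52.99). In contrast, miR-34c-5p was mainly of 1 length. Its tag of 23 nt had 7580 reads in the control and 7676 in the PD library, or 85.1% (84.4 to 85.9) and 85.2% (84.5 to 85.9) of the arm. The tags of 22, 21 and 24 nt that start at the same base had 1119 and 1105, 93 and 97, and 67 and 89 reads. For miR-34b-5p the tag of 23 nt shown in RefSeq held 110 and 111 reads, or 75.9% (68.3 to 82.1) and 79.9% (72.4 to 85.7). The share of the main tag in the control overlapped that in the PD library for all 3 arms.

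**Figure D4:**
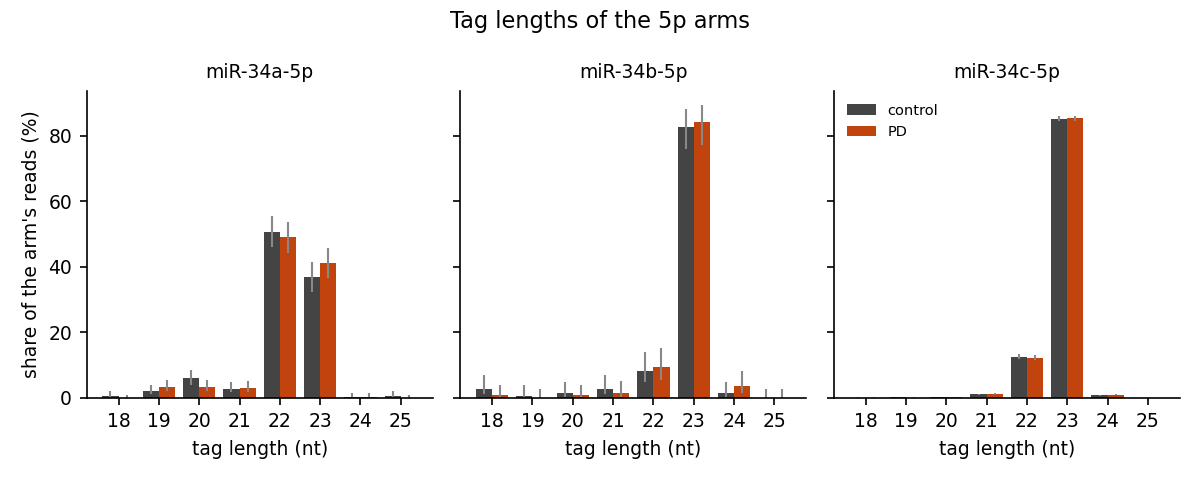
Share of the reads of miR-34a-5p, miR-34b-5p and miR-34c-5p at each tag length from 18 to 25 nt in the control and PD libraries, with 95% Wilson intervals. miR-34a-5p is divided between 22 nt (50.7% and 48.9%) and 23 nt (36.7% and 41.1%), and 23 nt prevails in the others.

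The 5′ end sets the seed, and its precision varied from arm to arm. Nearly all reads of miR-34c-5p, 99.9% in each library, began at the main first base, as did 98.1% (96.3 to 99.0) and 98.8% (97.2 to 99.5) of miR-34a-5p. For miR-34b-5p it was 86.2% in the control (79.7 to 90.9, 125 of 145 reads) and 93.5% in the PD library (88.2 to 96.6, 130 of 139 reads). The other reads of this arm, 20 and 9, all began 1 base earlier. Their most frequent tag, chosen here after its values were seen, had 10 and 6 reads and is shown beside the main tag with its own bases 2 to 8 in capitals:
miR-34b-5p, main start: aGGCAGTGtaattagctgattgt
miR-34b-5p, start 1 base earlier: tAGGCAGTgtaattagctgattg
The intervals of the earlier start, 13.8% in the control (9.11 to 20.3) and 6.47% in the PD library (3.44 to 11.8), overlapped. Overlap is not a test of a difference, and no test of the shares of arms, starts, tags or added bases was run.

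On the 3p side, the main start of miR-34a-3p held 71.0% of reads in the control (61.8 to 78.8) and 62.6% in the PD library (52.4 to 71.9), and 31 and 33 reads began 1 base earlier. The main tag, 60 and 42 reads, was 1 base longer at the 3′ end than the RefSeq sequence. The leading tag with the earlier start, also chosen after its values were seen, had 26 and 28 reads:
miR-34a-3p, main start: aATCAGCAagtatactgcccta
miR-34a-3p, start 1 base earlier: cAATCAGCaagtatactgcccta
For this arm the result turned on the form counted. Per clean read, the tags at the main start alone gave a fold change of 0.676 (unadjusted exact binomial p = 0.030). The main tag alone gave 0.631 (unadjusted exact binomial p = 0.022), past 1.5-fold, while all tags of the arm gave 0.766 (p = 0.064). Per read that matches miRNA hairpins and per read of 20 to 24 nt, all tags of the arm gave 0.879 and 0.928. The narrower sets of tags were not examined on these scales. In miR-34b-3p the shifted reads began 1 base later, 8 of 31 in the control (25.8%, 13.7 to 43.2) and 12 of 36 in the PD library (33.3%, 20.2 to 49.7). The main start of miR-34c-3p held 19 of 23 and 21 of 23 reads. In each of the 3p arms the interval of the main start in 1 library overlapped that in the other.

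**Figure D5:**
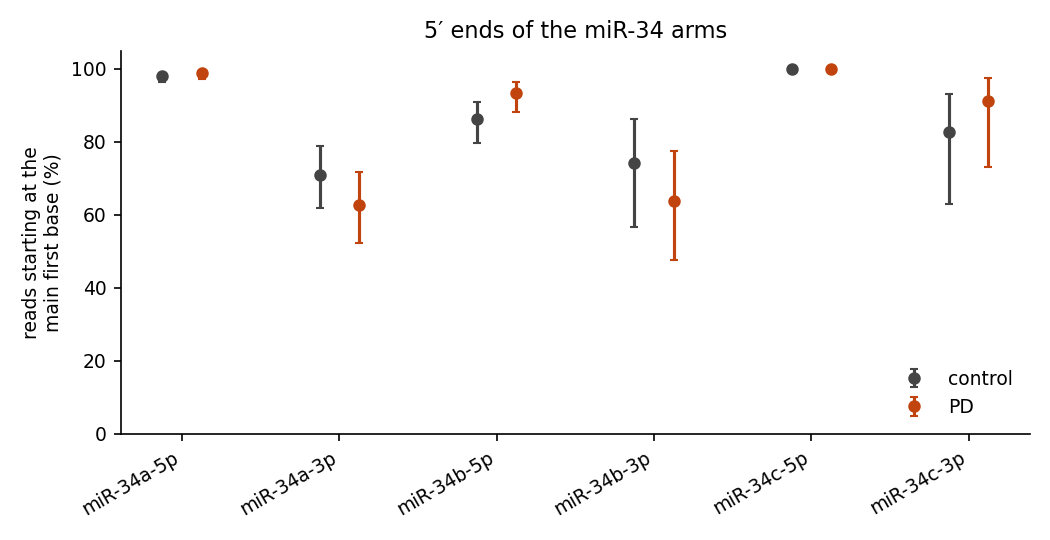
Share of each arm's reads that begin at the first base of its most frequent tag in the control and PD libraries, with 95% Wilson intervals. miR-34a-5p and miR-34c-5p lie above 98%, and miR-34a-3p and miR-34b-3p lie between 62.6% and 74.2%.

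The seed of the miR-34 5p arms is also carried by the Mir449 hairpins, which lie in introns of Cdc20b on chromosome 13 and are known for their role in multiciliated cells. Their RefSeq sequences are shown with the seed in capitals for comparison with the miR-34 5p arms:
miR-449a-5p: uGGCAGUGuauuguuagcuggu
miR-449c-5p: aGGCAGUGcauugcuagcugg
miR-449a-5p had 81 reads in the control (4.29 RPM, 3.41 to 5.34) and 51 in the PD library (2.43 RPM, 1.81 to 3.202). Its fold change was 0.567 (0.392 to 0.815, adjusted exact binomial p = 0.0048), the only detected miRNA with this seed past 1.5-fold. Per read that matches miRNA hairpins miR-449a-5p stood at 0.650, still past that criterion. Per read of 20 to 24 nt it stood at 0.687, short of it. With an assumed coefficient of variation of 0.1 in the exact test of edgeR, its adjusted p was 0.12. miR-449c-5p had 100 and 86 reads, a fold change of 0.775 (0.574 to 1.04, adjusted exact binomial p = 0.17). Mir449b had 0 reads in both libraries, where 3 reads would give 0.159 and 0.143 RPM. miR-6956-5p, whose main tag also had this seed, had 0 and 1 reads and was not detected. Over all miRNAs with the seed, 9652 reads were found in control (511 RPM) and 9703 with PD (463 RPM), and miR-34c-5p alone held 92.3% and 92.8% of them. The 5p arms of the Mir449 hairpins held 1.88% and 1.41%.

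Other miRNAs linked to p53 were read from a list of 13 hairpins drawn from textbook knowledge. Mir605 was not analysed here, Mir145b had 0 reads in both libraries, and the other 11 hairpins had 13 detected miRNAs. Of these 13 miRNAs, 0 passed 1.5-fold in either direction, beside 13.7% lower and 6.17% higher among all detected miRNAs, and their fold changes ranged from 0.711 to 1.32. Per read that matches miRNA hairpins and per read of 20 to 24 nt, 1 of them, miR-15a-3p (17 and 25 reads, 1.32 per clean read), passed 1.5-fold, at 1.52 and 1.60. By the adjusted exact binomial test per clean read, 1 of the 13 was lower and 1 higher, beside 45.3% (235 of 519) called in either direction among all detected miRNAs. Their median log2 fold change was 0.00, beside -0.17 for all detected miRNAs. The miRNA of the list with the most reads was miR-107-3p, a miRNA of the Pank1 gene, with 32906 reads in control (1744 RPM), 26998 with PD (1289 RPM) and a fold change of 0.739 (0.727 to 0.751). It is the member called lower, and with an assumed coefficient of variation of 0.1 in the exact test of edgeR its adjusted p was 0.19. Short tags of miR-107-3p can also match miR-103 and were counted for both, so that its level is uncertain to that extent.

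Over the 2 libraries, the detected miRNAs nearest in level to miR-34a-5p were miR-187-3p (21.04 and 20.2 RPM), miR-193a-3p (20.6 and 20.1 RPM) and miR-200c-3p (20.6 and 19.0 RPM), at distances of 0.090, 0.12 and 0.14 on the log2 scale. Nearest to miR-34c-5p were miR-291a-3p (481 and 401 RPM), miR-543-3p (554 and 383 RPM) and miR-294-5p (393 and 367 RPM), at distances of 0.10, 0.29 and 0.35. miR-291a-3p and miR-294-5p belong to the cluster of Mir290 to Mir295, which marks mESCs. The cluster, counted without Mir290b, Mir291b and Mir292b, stood at 33056 RPM in control and 28348 RPM with PD. Both libraries thus carried the marker of the labelled cell type. With 2 libraries these distances describe the levels and no shared pattern could be tested.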

How the data were processed

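Small RNA of J1 mESCs was sequenced in 1 library per treatment. According to the methods of the study, RNA of 18 to 30 nt was purified from a gel, ligated to adapters and sequenced on a HiSeq 2000, whereas the labels name a TruSeq RNA kit. Reads were cleaned and size-selected (at least 18 nt) before deposit. What the authors deposited is the raw count of clean reads for every distinct tag, neither aligned nor normalized. The submitters' processing notes name the build mm9, but the tags carry no coordinates, and all positions given here are on GRCm38 from GENCODE M21 or RefSeq (GRCm38.p6). The last line of each file, which holds only the total count, was left out.

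From the deposited counts, perfect matches of whole tags to the GENCODE hairpins were found in Python 3.11.15 (numpy 2.4.6). The arms were separated by folding (ViennaRNA 2.7.2), and a tag was counted for an arm when it overlapped the most frequent tag there by at least 16 nt. RPM was computed per clean read, with 0.01 RPM in place of 0 for fold changes. Detection meant 1 RPM in either library. Reads were compared by 2-sided exact binomial tests adjusted by Benjamini-Hochberg across the 519 detected miRNAs, and loci by a Fisher exact test, with SciPy 1.17.1. The quasi-likelihood test of edgeR needs replicates and was not run. As alternatives, edgeR 4.0.16 (TMM, and its exact test with assumed coefficients of variation) and DESeq2 1.42.0 (size factors) in R 4.3.3, other denominators, other sets of tags and thinning to equal depth were used. The scripts were tested on simulated data.

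The text names all arms of the members, miRNAs with the same seed, the p53-linked list (by count, with values for miRNAs past 1.5-fold and the one with the most reads), the 3 detected miRNAs nearest in level to the leading arm of each locus, and the 4 most frequent tags of these arms. The members and lists were chosen with earlier results of these data known.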

Additional observations from a re-analysis of the deposited data

How the results depend on the processing

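With 1 library per treatment, leaving out a replicate could not be run. No paired analysis was possible because each group holds 1 library. The direction against the control depended on the denominator. Per read that matches miRNA hairpins, the fold change became 1.04 for the family, 1.04 for the Mir34b/Mir34c locus, 1.04 for miR-34c-5p, 1.03 for miR-34a-5p, 1.03 for miR-34c-3p and 0.996 for the Mir34a locus. Per read of 20 to 24 nt it became 1.10 for the family, 1.05 for the Mir34a locus, 1.10 for the Mir34b/Mir34c locus, 1.10 for miR-34c-5p, 1.08 for miR-34a-5p, 1.05 for miR-34b-5p and 1.09 for miR-34c-3p. With TMM it was 1.02 for the family, 0.972 for the Mir34a locus, 1.02 for the Mir34b/Mir34c locus, 1.02 for miR-34c-5p, 1.00 for miR-34a-5p and 1.01 for miR-34c-3p. With size factors of DESeq2 it was 1.02 for the family, 0.978 for the Mir34a locus, 1.03 for the Mir34b/Mir34c locus, 1.03 for miR-34c-5p, 1.01 for miR-34a-5p and 1.01 for miR-34c-3p. Tags at the main start alone turned miR-34b-3p to 0.901, and tags with 1 or 2 added 3′ bases turned miR-34c-3p to 1.06.

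With assumed coefficients of variation of 0.1, 0.2 and 0.4 in the exact test of edgeR, the fold changes of 0.909 (family), 0.869 (Mir34a locus) and 0.911 (Mir34b/Mir34c locus) no longer passed, with unadjusted p from 0.37 to 0.87. The ratio of the locus fold changes stayed between 0.892 and 0.982 under its 5 alternatives, with a Fisher exact p of 0.21 or more. Of 78 alternative values for arms, 1 passed 1.5-fold, miR-34a-3p by its main tag alone, per clean read.

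The background moved more. Against 71 detected miRNAs 1.5-fold lower, 300 were lower without a filter and 27 among those of at least 10 RPM. These filters also change which miRNAs are counted, and without a filter undetected ones are included. Lower by 2-fold were 16. Lower by 1.5-fold were 30 per miRNA read, 23 per read of 20 to 24 nt, and 34 each with TMM and DESeq2. Those higher numbered, in the same order, 272, 8, 10, 52, 64, 43 and 46, against 32. Under each of the other denominators more miRNAs were higher than lower, the reverse of the counts per clean read. In the p53-linked list, the fold changes of miR-15a-5p, miR-194-5p and miR-200c-3p turned to 1.08, 1.13 and 1.06 per miRNA read and to 1.14, 1.19 and 1.12 per read of 20 to 24 nt. There miR-15a-3p passed 1.5-fold under both, at 1.52 and 1.60. On the same scales miR-192-5p stood at 1.16 and 1.22, miR-143-3p at 1.15 and 1.22, and miR-16-5p at 1.19 and 1.26. For these, the unadjusted exact binomial p was at most 9.21e-06 on both scales. miR-107-3p stayed below the control, at 0.848 and 0.895. Causes of these changes were not tested. Depth limits the 3p arms, whose fold intervals reach past 1.5-fold.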

Other observations

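Tags that match a miR-34 arm except for 1 or 2 added bases at the 3′ end lie outside the counts above. For miR-34c-5p there were 352 such reads in the control and 378 in the PD library, or 3.80% (95% Wilson interval 3.43 to 4.21) and 4.03% (3.65 to 4.44) of the arm with these reads included. Single added A was the most frequent form, with 211 and 238 reads, followed by single T with 107 and 99. For miR-34a-5p the share was 14.1% (11.3 to 17.4, 69 reads) in the control and 13.3% (10.5 to 16.6, 64 reads) in the PD library, with single A in 28 and 31 reads and single T in 17 and 11. The intervals of the shares overlapped between the libraries for both arms, and those of miR-34a-5p and miR-34c-5p did not overlap in either library. In miR-34b-5p there were 2 and 3 reads with added bases, or 1.36% (0.374 to 4.82) and 2.11% (0.721 to 6.03), an interval that did not overlap that of miR-34a-5p in either library. An A added to the main tag of miR-34b-5p would give its tag of 24 nt (1 and 4 reads), also a perfect match. Likewise, a T added to the main tag of miR-34a-5p would give its tag of 23 nt, also a perfect match. That tag had 154 reads in the control and 172 in the PD library, none counted as added. Whether A or T was added more often to miR-34a-5p therefore cannot be told from these counts. Which added bases can be seen thus differs among the arms, and their shares do not measure quite the same thing. An added base cannot be told from a sequencing error in these counts.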
